A study of Mus musculus with 25 samples.

Results

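The night-to-day difference of spinal cord cholinergic neurons that lack the clock gene *Bmal1* was taken from 12 of the 25 libraries of the series, namely the 6 *ChAT-BKO* libraries collected at ZT20 against the 6 collected at ZT8. Members are all genes whose counts summed to 10 or more over the 24 immunoprecipitates, which were 21738 of the 50559 genes listed. *ChAT-BKO* mice (*RiboTag fx/+* and *Bmal1 fx/fx* with *ChAT-Cre*) were males of 6 mo, each library came from 1 mouse of its condition, and the controls (*RiboTag fx/+* with *ChAT-Cre*, 6 per time point) carried the same Cre and ribosome tag without the floxed *Bmal1* allele. Mice lived under 12 h of light and 12 h of darkness, so that ZT8 lies in the light and ZT20 in the dark period. Cre is driven by the choline acetyltransferase gene, and *Bmal1* is therefore deleted in cholinergic cells only, while other cells of these animals, including the central pacemaker, keep it. RiboTag adds a hemagglutinin tag to a ribosomal protein in the same cells, and the immunoprecipitate (IP) enriches the mRNAs on their ribosomes.

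BMAL1 is the obligate activator of the molecular clock. With CLOCK or NPAS2 it binds E-box elements and drives the period, cryptochrome and REV-ERB repressors as well as output factors such as DBP, and cells without it have no self-sustained rhythm. Time of day can still reach such a cell from outside, through body temperature, hormones, feeding and neuronal activity, each of which is known to act on gene groups of its own. Lower motor neurons, which are cholinergic, are most active during the dark period, when mice move and feed.

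The libraries carried the labelled genotype and cell type. *Arntl*, the gene symbol of *Bmal1*, was at 1.97, 2.60 and 3.30 CPM (lowest, median and highest of 6) in *ChAT-BKO* libraries at ZT8 and at 1.35, 1.81 and 2.80 CPM at ZT20, below all control libraries, which ran from 6.22 to 10.9 CPM. Its remaining signal did not pass the test between time points in *ChAT-BKO* (log2 fold change -0.39, SE 0.20, edgeR adjusted p = 0.591), and transcripts without the deleted exon are counted too. All 7 cholinergic markers were above the pooled input, with a median log2 ratio of 2.37, and *Slc18a3*, the vesicular acetylcholine transporter, stood at 3.46. The glial, vascular and blood marker lists had median log2 ratios between -4.36 and -2.79, so that RNA of other cells was reduced but not removed. Other lists were reduced less, with medians of -1.76 (inhibitory interneurons), -1.81 (skeletal muscle) and -2.25 (excitatory interneurons). Of the 6 excitatory interneuron markers 1 was above the input. Depth moved with time: totals ran from 4.04 to 17.4 M counts at ZT8 (median 15.1 M) and from 5.22 to 18.7 M at ZT20 (median 7.62 M). Replicates within a time point differed by more than counting error, and chi-square over degrees of freedom was at least 1.86 in all 15 pairs at ZT8 and 2.42 in all 15 pairs at ZT20.

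Cholinergic neurons without *Bmal1* had 50 transcripts higher and 12 lower at night, at an adjusted p under 0.05 from edgeR's quasi-likelihood test, which is 0.230% and 0.0552% of the genes tested and 0.285% in either direction. Among the higher genes were 4 of the endoplasmic reticulum (ER) unfolded protein response and 3 heat shock chaperones, and among the lower ones the cold-inducible *Cirbp*, the RNA-binding proteins *Hnrnpdl* and *Ewsr1*, and the clock output factor *Dbp*. Over all genes tested 2048 had an unadjusted p under 0.05 (9.42%) and 11045 a positive fold change (50.8%). The counts of each list are to be read against these shares, which were not matched for level. A mean under 1 CPM in the *ChAT-BKO* libraries was held by 8023 of the genes tested and by no called gene. Changes were small. Absolute log2 fold changes ran from 0.28 to 1.63 with a median of 0.49, and 46 of the 62 were under 0.6. For 54 of the 62, all 6 libraries of one time point lay above all 6 of the other, which held for 1.18% of all genes tested, but the same libraries gave the calls. In 7 of the others 5 ZT20 libraries lay outside the ZT8 range, and in 1, 4 did. With each of the 12 libraries left out in turn, 29 of the 62 were called every time (23 higher, 6 lower) and none changed sign.

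**Figure D1:**
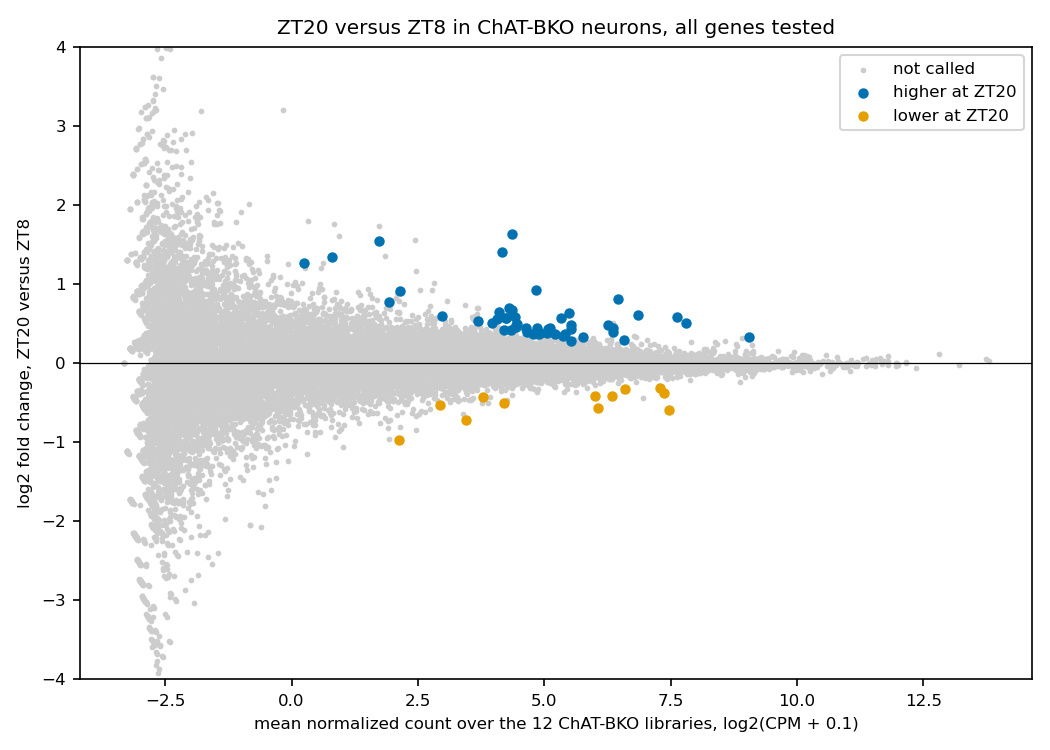
The log2 fold change of ZT20 over ZT8 in *ChAT-BKO* neurons is plotted against the mean level of each gene, as log2(CPM + 0.1), with the 50 genes called higher in blue and the 12 called lower in orange. Called genes lay between 1.09 and 534 CPM, and 18 genes of low level that were not called fall beyond the axis limits of -4 and 4.

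*Banp*, which encodes a nuclear protein that binds CG-rich elements in promoters, rose most clearly. It was at 7.10, 8.92 and 13.6 CPM (lowest, median, highest) at ZT8 and at 22.5, 25.5 and 30.4 CPM at ZT20. The groups did not overlap, and the change was 2.65-fold (log2 fold change 1.40, SE 0.12, edgeR adjusted p = 6.39e-06; exact permutation p = 0.00216, two-sided, the smallest that 6 against 6 libraries allow). In controls *Banp* rose too, by 0.89 on the log2 scale (SE 0.13, adjusted p = 0.0074).

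Heat shock chaperones keep proteins folded and respond to temperature and other proteotoxic load. Of 32 heat shock genes tested, 29 had a positive fold change in controls, with a median of 0.08 and 0 called. In *ChAT-BKO* 3 rose, none fell, and 28 had a positive fold change, with a median of 0.11 against 0.00 for all genes tested. The 3 are 9.38% of the list, against 0.285% called of all genes tested, of which 50.8% had a positive fold change. *Hspa1b*, an inducible HSP70, was at 8.07, 9.76 and 11.3 CPM at ZT8 and at 23.5, 27.0 and 43.6 CPM at ZT20. All ZT20 libraries lay far above the ZT8 range (3.10-fold, log2 fold change 1.63, SE 0.15, edgeR adjusted p = 9.25e-06). Its neighbour *Hspa1a* was at 29.1, 36.8 and 38.1 CPM and then at 42.6, 54.7 and 67.9 CPM, again without overlap (log2 fold change 0.63, SE 0.10, adjusted p = 0.00442). *Dnajb1*, the HSP40 partner of these chaperones, went from 58.7, 62.6 and 73.2 CPM to 79.7, 88.9 and 98.7 CPM (log2 fold change 0.48, SE 0.07, adjusted p = 0.00225). *Hspa1a* and *Hspa1b* encode nearly identical mRNAs that the counting could split wrongly, and with their counts summed the log2 fold change was 0.93 (SE 0.11, adjusted p = 0.000243). Among the members that did not pass, *Dnajb4* (0.29, adjusted p = 0.061) and *Chordc1* (0.34, adjusted p = 0.0879) came nearest, and the constitutive *Hspa8* (0.11) and *Hsp90aa1* (0.07) were small. DESeq2 called 5 of the 32, adding *Dnajb4* and *Chordc1*.

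The promoters of the HSP70 genes are shown because these genes had the largest change among the chaperones and are hard to tell apart. Each sequence is the 250 bases before the RefSeq start (GRCm38.p6), 5′ to 3′ on the strand of the gene, with the heat shock element (GAANNTTC or TTCNNGAA, each the same on both strands) in capitals:
Hspa1b, chr17:34959239-34959488, - strand: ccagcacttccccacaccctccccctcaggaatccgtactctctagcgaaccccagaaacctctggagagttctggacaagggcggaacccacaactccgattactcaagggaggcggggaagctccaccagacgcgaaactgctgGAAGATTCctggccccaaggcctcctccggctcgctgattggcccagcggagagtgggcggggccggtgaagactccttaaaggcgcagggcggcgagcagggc
Hspa1a, chr17:34972157-34972406, - strand: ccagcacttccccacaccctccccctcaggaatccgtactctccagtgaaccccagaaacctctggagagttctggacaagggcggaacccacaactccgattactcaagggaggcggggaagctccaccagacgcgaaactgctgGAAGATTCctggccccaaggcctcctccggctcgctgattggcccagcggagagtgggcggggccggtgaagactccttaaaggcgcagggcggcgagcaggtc
The windows differ at 3 of 250 positions, and each holds 1 match, which ends 97 bases before the start. The motif was present in 12.9% of the 27025 promoters of the table, in 10.7% of the 15459 promoters found for genes tested and in 5 of the 43 found for genes higher at ZT20 (11.6%), namely *Hspa1a*, *Hspa1b*, *Acin1*, *Cdkn1a* and *P4ha2*. *Dnajb1* held none in its first listed window, and none of the 9 promoters found for lower genes did.

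The cold-inducible RNA-binding protein *Cirbp*, known for its rise on mild cooling, moved opposite to the HSP70 genes. *Cirbp* was at 67.3, 77.9 and 93.7 CPM at ZT8 and at 49.1, 53.7 and 59.2 CPM at ZT20. All ZT20 libraries lay below the ZT8 range (log2 fold change -0.56, SE 0.08, edgeR adjusted p = 0.00181; exact permutation p = 0.00216). Its relative *Rbm3* was at 47.2, 54.8 and 63.3 CPM and at 35, 43.7 and 47.6 CPM, and missed the threshold (-0.36, SE 0.08, adjusted p = 0.0668), although 5 of 6 ZT20 libraries were below all ZT8 libraries and DESeq2 called it. Of the 9 genes of this list, which also holds temperature-responsive splicing factors and kinases, *Cirbp* fell and *Tra2a* rose, and the median was 0.14. The share called was 22.2%, against 0.285% of all genes tested.

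ER chaperones and their regulator were the list with the most calls. The unfolded protein response senses a load of unfolded protein in the ER and raises chaperones, disulfide isomerases and degradation factors, largely through XBP1 and ATF6. Of 30 genes, 26 had a positive fold change in controls, with a median of 0.08 and 2 called. In *ChAT-BKO* 4 rose, none fell and 26 had a positive fold change, with a median of 0.16. That is 13.3% called, against 0.285% of all genes tested, of which 50.8% had a positive fold change. *Xbp1*, the transcription factor of the response, was at 27.9, 32.7 and 35.1 CPM at ZT8 and at 45.1, 48.4 and 51.3 CPM at ZT20, without overlap (log2 fold change 0.57, SE 0.06, edgeR adjusted p = 0.000124). The disulfide isomerase *Pdia4* went from 36.3, 38.8 and 42.9 CPM to 50.2, 52.3 and 59.4 CPM (0.43, SE 0.06, adjusted p = 0.0023). *Hspa5*, the ER HSP70 also known as BiP, was at 443, 470 and 503 CPM and at 539, 578 and 664 CPM (0.34, SE 0.06, adjusted p = 0.011). *Creld2*, a secreted ER stress protein, was at 12.2, 14.5 and 18.5 CPM and at 19.7, 22.3 and 26.8 CPM (0.56, SE 0.11, adjusted p = 0.0248). In each of these 4 genes every ZT20 library exceeded every ZT8 library, and *Creld2* was called in 6 of the 12 fits with 1 library left out while the other 3 were called in all. *Pdia6* (0.35, adjusted p = 0.0619), *Herpud1* (0.24, adjusted p = 0.0668) and *Sdf2l1* (0.54, adjusted p = 0.0879) did not pass in edgeR, and DESeq2 called all 3. The PERK-branch genes *Atf4* (0.11, adjusted p = 0.842) and *Ddit3* (-0.03, adjusted p = 0.967) were not called.

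The promoters of the called ER genes are shown with the ER stress response element in capitals, read as CCAAT and CCACG with 9 bases between them or its reverse complement, a motif added after the values were seen. Each is again the 250 bases before the RefSeq start (GRCm38.p6), 5′ to 3′ on the strand of the gene:
Hspa5, chr2:34771840-34772089, + strand: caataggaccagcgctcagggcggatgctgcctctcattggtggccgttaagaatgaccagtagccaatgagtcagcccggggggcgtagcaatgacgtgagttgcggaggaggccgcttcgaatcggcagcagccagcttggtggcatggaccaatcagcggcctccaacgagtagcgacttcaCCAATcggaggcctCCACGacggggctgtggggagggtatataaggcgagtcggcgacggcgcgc
Creld2, chr15:88819396-88819645, + strand: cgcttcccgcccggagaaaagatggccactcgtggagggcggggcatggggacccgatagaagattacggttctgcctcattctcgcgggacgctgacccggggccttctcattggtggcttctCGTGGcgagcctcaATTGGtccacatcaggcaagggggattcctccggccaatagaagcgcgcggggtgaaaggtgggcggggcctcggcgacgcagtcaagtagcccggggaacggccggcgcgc
Pdia4, chr6:47813513-47813762, - strand: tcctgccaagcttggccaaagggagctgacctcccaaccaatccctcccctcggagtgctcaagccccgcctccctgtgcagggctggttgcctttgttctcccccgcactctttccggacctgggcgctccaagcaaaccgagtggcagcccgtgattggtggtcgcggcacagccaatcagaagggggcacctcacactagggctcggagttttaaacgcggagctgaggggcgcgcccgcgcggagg
Xbp1, chr11:5520391-5520640, + strand: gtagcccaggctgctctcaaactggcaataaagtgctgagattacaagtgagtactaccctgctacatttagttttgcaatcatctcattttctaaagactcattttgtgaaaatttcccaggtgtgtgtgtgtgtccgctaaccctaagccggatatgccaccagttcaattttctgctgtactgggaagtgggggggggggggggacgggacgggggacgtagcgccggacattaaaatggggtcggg
*Hspa5* held 1 match, ending 47 bases before the start, and *Creld2* 1 match on the opposite strand, ending 108 bases before it. *Pdia4* and *Xbp1* held none in this form and window. The element was in 33 of all 27025 promoters (0.122%), in 22 of the 15459 of genes tested (0.142%) and in these 2 of the 43 found for higher genes (4.65%). The other motifs searched, on both strands and over the same window, are given by their counts among the 43, then by their shares of the promoters of genes tested and of all promoters. The E-box CACGTG was in none (against 7.53% and 6.05%), the D-box core TTATNNAA in 3 (6.98%, against 6.96% and 11.4%), the cAMP element TGACGTCA in 1 (2.33%, against 2.3% and 1.62%) and the glucocorticoid element core ACANNNTGT in 1 (2.33%, against 4.18% and 5.91%). The unfolded protein response element TGACGTGG, which shares bases with the cAMP element and with CCACG read backwards, was in none, against 0.634% and 0.503%. Among the 9 promoters found for lower genes, *Hnrnpd* held an E-box and *Mfsd10* the glucocorticoid core.

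Of 9 prolyl and lysyl hydroxylases, ER enzymes that modify procollagen during its folding, 3 rose and the other 6 did not pass. The family was listed after the values were seen, and 33.3% of it was called, against 0.285% of all genes tested. *P4ha1*, a catalytic subunit of prolyl 4-hydroxylase, was at 13.0, 14.9 and 17.9 CPM at ZT8 and at 22.1, 24.3 and 26.8 CPM at ZT20, without overlap (log2 fold change 0.70, SE 0.08, edgeR adjusted p = 0.000465). *P4ha2* (0.43, SE 0.07, adjusted p = 0.0108) and the lysyl hydroxylase *Plod1* (0.39, SE 0.06, adjusted p = 0.00532) also rose, and the median of the 9 was 0.24. *P4ha1* is a textbook hypoxia target as well, and it was called in all 12 fits with a library left out.

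Single genes of splicing and mRNA processing were called, without a list of their own, and most members of the SR and hnRNP lists did not pass. Higher at night were *Acin1*, a protein associated with the exon junction complex (62.9, 69.5 and 76.8 CPM at ZT8, 83.0, 95.9 and 102 CPM at ZT20; log2 fold change 0.45, SE 0.06, edgeR adjusted p = 0.00225), and the m6A reader *Ythdc1* (26.4, 29.6 and 31.4 CPM, then 37.0, 40.2 and 42.5 CPM; 0.44, SE 0.06, adjusted p = 0.00225). The spliceosome protein *Prpf38b* went from 17.1, 18.0 and 19.9 CPM to 24.3, 25.3 and 26.0 CPM (0.45, SE 0.07, adjusted p = 0.00287). The SR-like splicing factor *Tra2a* went from 35.2, 37.7 and 43.0 CPM to 47.5, 53.0 and 66.3 CPM (0.49, SE 0.08, adjusted p = 0.00678). In all 4 the ZT20 libraries were above every ZT8 library. *Snrnp48*, *Luc7l*, *Srek1*, *Rsrp1* and *Rbm5*, named after their values were seen, rose by log2 fold changes of 0.65, 0.29, 0.58, 0.82 and 0.33, and were called in 12, 12, 8, 4 and 0 of the 12 fits with a library left out. *Tra2a* was the only gene called of the 20 SR factors and kinases tested (5%, against 0.285% of all genes tested). Of the 20, 14 had a positive fold change. *Clk1*, a kinase of SR proteins, had a fold change of 0.70 that did not pass (adjusted p = 0.186), and DESeq2 called it together with *Srsf4*.

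Other RNA-binding protein genes were lower at night. *Hnrnpdl* was at 87.3, 91.5 and 101 CPM at ZT8 and at 60.6, 68.8 and 75.9 CPM at ZT20, without overlap (log2 fold change -0.42, SE 0.06, edgeR adjusted p = 0.00225). Its paralog *Hnrnpd*, which binds AU-rich mRNA elements, went from 98.4, 106 and 119 CPM to 79.6, 85.8 and 92.8 CPM (-0.33, SE 0.06, adjusted p = 0.0248). *Ewsr1*, a FET-family protein, went from 163, 171 and 186 CPM to 127, 139 and 155 CPM (-0.31, SE 0.06, adjusted p = 0.0196). *Hnrnpd* and *Ewsr1* were each called in 8 of the 12 fits with a library left out, *Hnrnpdl* in all. The hnRNP proteins were 2 of the 20 family genes tested (10%, against 0.285% of all genes tested). The family, listed after the values were seen, had a median of 0.01. A list of 70 RNA-binding protein genes, chosen for rhythmic levels in other, wild-type mice, had 2 members that fell, none that rose and 37 with a positive fold change, at a median of 0.01. The share called was 2.86%, against 0.285% of all genes tested, a background not matched for level. An unadjusted edgeR p under 0.05 was found for 17 of the 70, against 9.42% of all genes tested.

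Of 27 core clock genes 1 was called in controls and 1, the same gene, in *ChAT-BKO*, with medians of 0.02 and 0.00. That was 3.7% of the list in *ChAT-BKO*, where 0.285% of all genes tested were called. *Dbp*, a PAR bZIP output factor, was at 11.3, 13.3 and 16.0 CPM at ZT8 and at 7.49, 8.07 and 9.64 CPM at ZT20, without overlap (log2 fold change -0.72, SE 0.11, edgeR adjusted p = 0.00249). It fell in controls as well, from 13.5, 16.8 and 23.1 CPM to 8.06, 9.30 and 11.7 CPM (-0.86, SE 0.12, adjusted p = 0.0074), and the difference of the effects was 0.14 with a 95% interval from -0.22 to 0.49. *Dbp* was lower in the IP than in the pooled input, at a log2 ratio of -2.40, and the part of RNA from cells with an intact clock in its change was not tested. The other 26 clock genes had log2 fold changes between -0.37 and 0.44 in controls, with a smallest edgeR adjusted p of 0.288. In *ChAT-BKO* they lay between -0.39 and 0.66, the smallest adjusted p was 0.0933, and 7 had an unadjusted p under 0.05. Among them *Nfil3*, a repressor that binds the same D-box as DBP, was at 9.79, 11.2 and 13.3 CPM and at 13.7, 14.6 and 16.3 CPM, so that its groups did not overlap although it did not pass (0.36, SE 0.09, adjusted p = 0.137), and DESeq2 called it. *Per2*, a period repressor, was nearest to the threshold, at 7.17, 9.72 and 10.9 CPM at ZT8 and at 10.6, 13.7 and 18.8 CPM at ZT20 (0.58, SE 0.14, adjusted p = 0.0933). Its groups overlapped, with 4 of 6 ZT20 libraries above all ZT8 libraries, and DESeq2 called it too. In controls *Per2* was at 2.49, 3.97 and 5.37 CPM and at 3.42, 4.01 and 5.07 CPM (0.11, SE 0.18, adjusted p = 0.925), and the difference of the effects was 0.47 (SE 0.23, edgeR adjusted p = 1). The *Bmal1* partner *Npas2* had a fold change of 0.66 (adjusted p = 0.255), whereas *Clock* (0.11), *Per1* (0.20), *Per3* (-0.12), *Cry1* (0.12), *Cry2* (0.10), *Nr1d1* (0.02) and *Nr1d2* (-0.12) were small and not called. *Noct*, a rhythmic phosphatase of the deadenylase family that was named after its values were seen, rose slightly (0.28, SE 0.06, adjusted p = 0.0446) and was called in 0 of the 12 fits with a library left out.

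**Figure D2:**
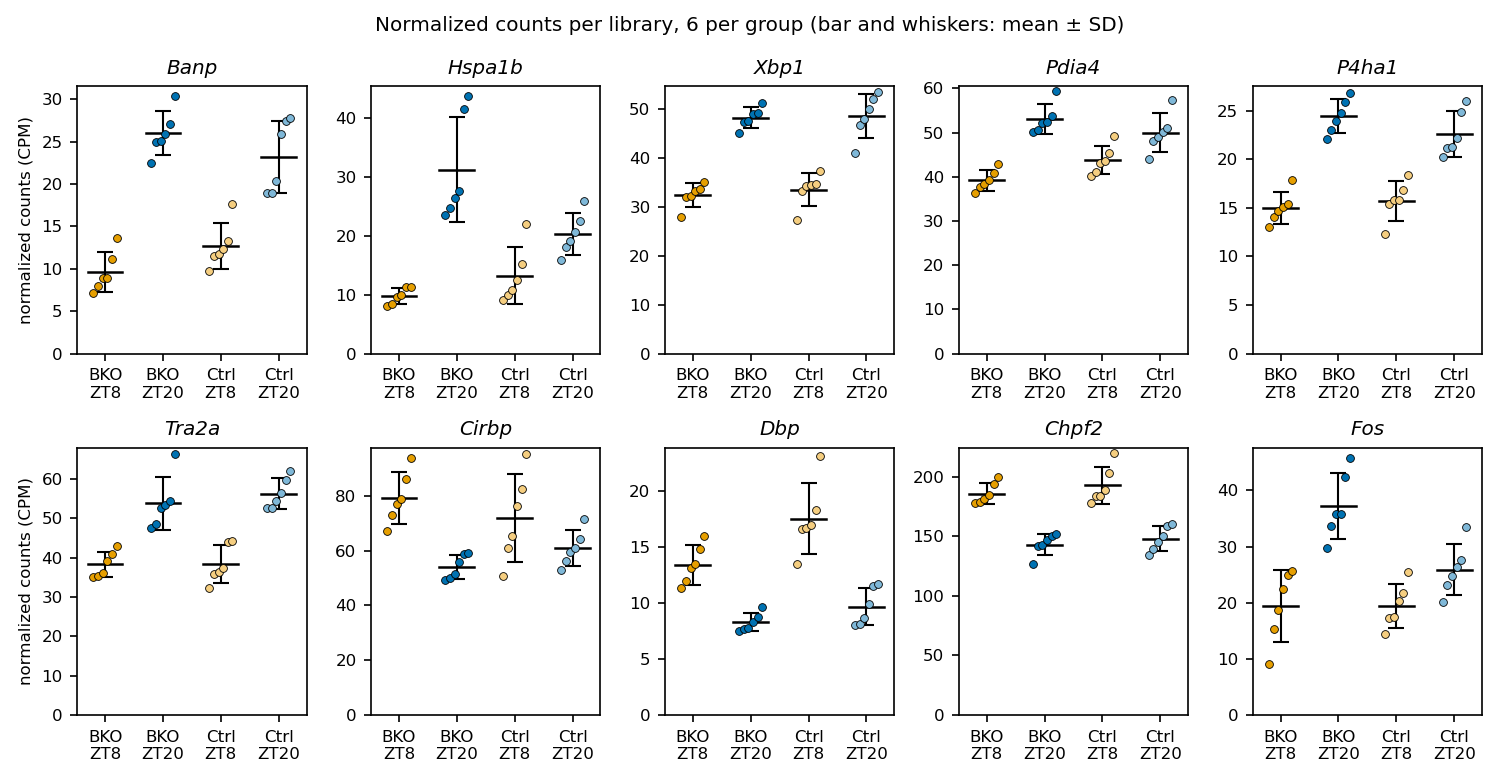
Normalized counts (CPM) of 10 genes are plotted for each of the 6 libraries of the 4 groups, with the mean and SD. In *ChAT-BKO* the ZT20 libraries of all 10 lie outside the ZT8 range, and in controls those of *Hspa1b*, *Pdia4*, *Cirbp* and *Fos* overlap it.

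Lists of genes that follow neuronal activity, hormones, feeding and cholesterol had 1 call each, which was 2.94% to 5% of their members. Over all genes tested, which were not matched for level, the share called was 0.285%. The immediate early gene *Fos*, induced within minutes of neuronal firing, was at 9.11, 20.6 and 25.7 CPM at ZT8 and at 29.7, 35.8 and 45.8 CPM at ZT20, without overlap (log2 fold change 0.93, SE 0.18, edgeR adjusted p = 0.0267), and was called in 6 of the 12 fits with a library left out. It was the only gene called of 27 immediate early genes, of which 19 had a positive fold change and 10 an unadjusted p under 0.05, with a median of 0.16. *Arc* (0.40, adjusted p = 0.186), *Egr1* (0.28, adjusted p = 0.704) and *Npas4* (-0.30, adjusted p = 0.768) were not called. Of 22 glucocorticoid receptor and target genes, *Errfi1*, an inhibitor of EGF receptor signaling, rose (0.38, SE 0.07, adjusted p = 0.0108), and the classical targets *Fkbp5* (0.18, adjusted p = 0.35), *Sgk1* (0.21, adjusted p = 0.792), *Tsc22d3* (0.05, adjusted p = 0.873) and *Zbtb16* (0.12, adjusted p = 0.807) did not pass. Of 20 fasting and insulin genes, the forkhead factor *Foxo6* fell from 14.7, 15.6 and 16.2 CPM to 10.6, 11.0 and 13.7 CPM (-0.44, SE 0.09, adjusted p = 0.0381). Of 34 cholesterol and SREBP genes, the fatty acid elongase *Elovl6* rose (0.37, SE 0.07, adjusted p = 0.0316), and the list's median was -0.01. With a library left out, *Foxo6* was called in 3 and *Elovl6* in 2 of the 12 fits, and *Errfi1* in all. An unadjusted edgeR p under 0.05 was found for 6 of the 22, 5 of the 20 and 5 of the 34 genes of these lists. Of all genes tested 9.42% had one.

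Several called genes belong to no list. Higher at night were *Uhrf2*, a ubiquitin ligase that binds hydroxymethylated DNA (14.5, 17.0 and 20.1 CPM, then 23.6, 25.5 and 28.1 CPM; log2 fold change 0.59, SE 0.08, edgeR adjusted p = 0.00129), and, named after their values were seen, the myo-inositol transporter *Slc5a3* (0.68, SE 0.11, adjusted p = 0.00773), the cyclin-dependent kinase inhibitor *Cdkn1a* (0.56, SE 0.10, adjusted p = 0.016) and the vasopressin receptor *Avpr1a* (0.77, SE 0.15, adjusted p = 0.0313). Lower at night was *Chpf2*, a chondroitin sulfate synthesis factor, at 178, 183 and 200 CPM and at 127, 145 and 152 CPM (-0.38, SE 0.05, adjusted p = 0.00225). The transferrin receptor *Tfrc*, which brings iron into cells, went from 67.4, 75.2 and 79.8 CPM to 41.8, 55.6 and 65.2 CPM (-0.42, SE 0.09, adjusted p = 0.0481). *Prkab1*, a regulatory subunit of the energy sensor AMPK, went from 18.8, 21.3 and 24.3 CPM to 10.4, 15.2 and 18.3 CPM (-0.51, SE 0.11, adjusted p = 0.0491). The groups of these 3 lower genes did not overlap, but *Tfrc* and *Prkab1* were each called in 2 of the 12 fits with a library left out. *Mfsd10*, a membrane transporter (-0.53, adjusted p = 0.043), was called in none of them, and the unnamed locus *LOC118568506* (-0.97, adjusted p = 0.0103) in all.

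The machinery of cholinergic transmission had no called gene between day and night. Since 0.285% of all genes tested were called, lists of this size would mostly hold none, and the absence of calls says little about their genes. Of 13 genes of acetylcholine handling (synthesis, loading, uptake, breakdown and receptors), edgeR and DESeq2 called 0, and 0 had an unadjusted p under 0.05. *Chat* had a log2 fold change of 0.05 (SE 0.16) and *Slc18a3* of 0.03 (SE 0.05). Of 25 glutamate, glycine and GABA receptor genes both tools called 0, with 3 at an unadjusted p under 0.05, and of 20 neuropeptide genes both called 0, with 1. The 89 cytoplasmic ribosomal protein genes and the 102 respiratory chain and ATP synthase genes had 0 calls by both tools and 0 unadjusted p-values under 0.05, with medians of 0.00 and -0.03. Of 39 proteasome genes edgeR called 0 and DESeq2 called *Psmd1*, and 2 had an unadjusted p under 0.05, with a median of -0.05. Signs were uneven: 40 of the 89, 21 of the 102 and 7 of the 39 had a positive fold change, against 50.8% of all genes tested. In controls 73, 60 and 13 of them did.

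**Figure D3:**
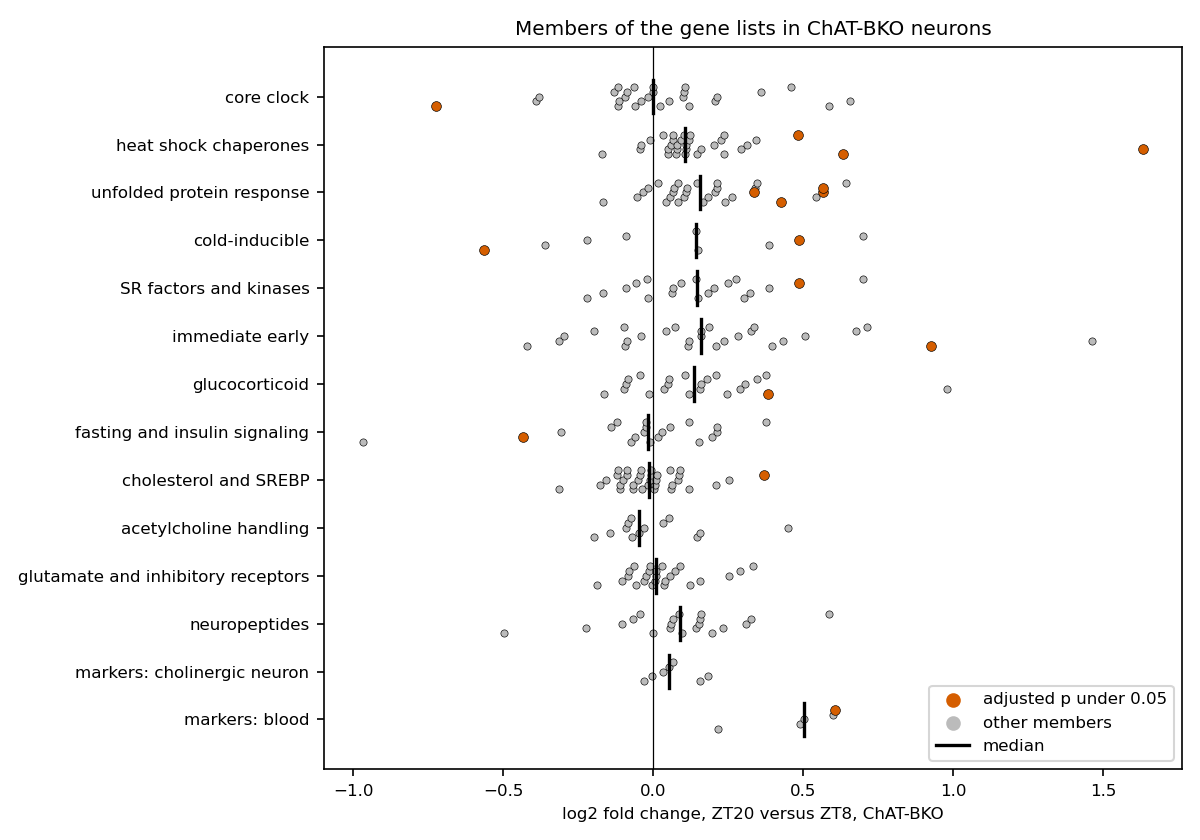
Each point is the log2 fold change of ZT20 over ZT8 in *ChAT-BKO* neurons of a member of 14 gene lists, with called members in orange and the list's median as a bar. The heat shock and unfolded protein response lists hold 3 and 4 called members, all above 0. The acetylcholine, receptor and neuropeptide lists hold none, where 0.285% of all genes tested were called.

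Transcripts of other cells and of mitochondria also differed with time. The mitochondrial ribosomal RNA *mt-Rnr2* was at 132, 150 and 201 CPM at ZT8 and at 205, 237 and 267 CPM at ZT20 (log2 fold change 0.58, SE 0.09, edgeR adjusted p = 0.00281), and *mt-Rnr1* rose by 0.50 (SE 0.09, adjusted p = 0.0238). Both are made inside mitochondria, are not read by tagged ribosomes, and stood at log2 ratios to the input of -3.70 and -3.06. Hemoglobin *Hba-a1*, a blood marker, was at 61.6, 91.6 and 109 CPM and at 103, 148 and 162 CPM (0.61, SE 0.12, adjusted p = 0.04), and was called in 5 of the 12 fits with a library left out. All 5 blood markers had positive fold changes, 1 was called (20%, against 0.285% of all genes tested), and their median was 0.50. Their summed level ran from 161 to 290 CPM at ZT8 and from 258 to 412 CPM at ZT20. Summed endothelial and vascular markers ran from 13.9 to 18.6 CPM and from 15.4 to 26.5 CPM with 0 of 6 called by edgeR. Astrocyte markers ran from 174 to 240 CPM and from 175 to 263 CPM with 0 of 6. Oligodendrocyte markers ran from 1680 to 2290 CPM and from 1720 to 2490 CPM with 0 of 6. Positive fold changes were held by 6, 6 and 2 members of these lists, at medians of 0.30, 0.16 and -0.04. DESeq2 called the endothelial *Cldn5* and the blood markers *Hba-a1* and *Hba-a2*. Skeletal muscle markers ran from 69.4 to 274 CPM and from 85.3 to 181 CPM, with 0 of 20 called and a median of 0.57, against -0.77 in controls. The cholinergic markers ran from 4280 to 4550 CPM and from 4250 to 4880 CPM. Of the 62 called genes 24 were above the input, 19 of the 50 higher (38%) and 5 of the 12 lower (41.7%), against 37.4% of all genes tested. The input was 1 pooled library without TMM scaling, so ratios near 0 do not settle on which side a gene lies. Of the called heat shock and ER response genes, *Hspa1a* (log2 ratio 1.38), *Hspa5* (1.31), *Creld2* (0.60), *Hspa1b* (0.54) and *Dnajb1* (0.36) were above the input. *Xbp1* (-0.50) and *Pdia4* (-0.08) were below it. Elsewhere *Foxo6* (2.10), *P4ha2* (1.68) and *Chpf2* (1.3), among others, were above 1, whereas *Banp* (-0.15) and *P4ha1* (-1.05) were below 0. *Gpr17*, a gene of oligodendrocyte precursors named after its values were seen, was at -4.86. In bulk IP libraries fewer cells of a type and less RNA per cell cannot be told apart, and the part of other cells' RNA in these changes was not tested.

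Nearly all of these genes had the same sign of change in neurons with *Bmal1*. In the 12 control libraries edgeR called 25 genes between ZT20 and ZT8 (21 higher, 4 lower, 0.115% of those tested), and 1793 had an unadjusted p under 0.05 (8.25%). Of the 62 genes called in *ChAT-BKO*, 61 had the same sign in controls, against 59.5% of all genes tested and 66% of those with a mean of at least 10 CPM, 16 were called there (25.8%), and 55 had an unadjusted p under 0.05 there (88.7%). No control library entered the test that called these genes, but all 24 immunoprecipitates entered the filter on counts. Of the 25 called in controls all had the same sign in *ChAT-BKO*, and 16 (64%) were called in both. By the rule for naming, the control genes with the smallest p were *Tra2a*, *Acin1*, *Banp*, *Xbp1* and *mt-Rnr2* (higher) and *Dbp*, *Chpf2*, *Odf2*, *Zkscan17* and *Prkab1* (lower), of which *Odf2* (log2 fold change -0.16) and *Zkscan17* (-0.41) were not called in *ChAT-BKO*. Across the 8739 genes with a mean of at least 10 CPM, fold changes of the 2 genotypes correlated at Pearson's r = 0.561 and Spearman's rho = 0.487, a description across genes, which are not independent replicates.

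**Figure D4:**
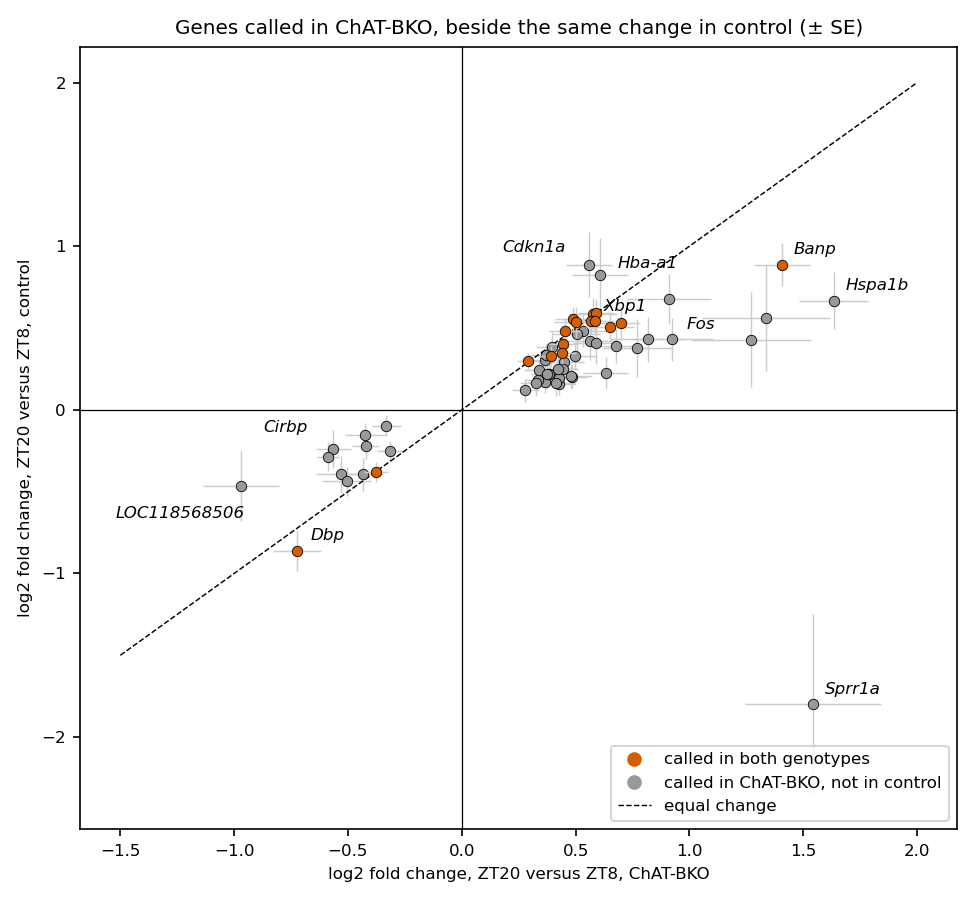
For the 62 genes called in *ChAT-BKO*, the log2 fold change of ZT20 over ZT8 is plotted against the same value in controls, with SE bars and the 16 genes called in both genotypes in orange. All but *Sprr1a* share the sign, and 51 of the 62 have the larger size in *ChAT-BKO*, the genotype in which they were chosen.

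No gene passed the test of whether its night-to-day change differed between genotypes. The interaction term over all 24 libraries gave 0 calls by edgeR, DESeq2 and limma voom, with a smallest adjusted p of 0.864, and 848 genes had an unadjusted p under 0.05 (3.90%). Intervals of single genes varied widely. For *Hspa1b*, whose log2 fold change in controls was 0.67 (SE 0.17, adjusted p = 0.212), the difference was 0.97 with a 95% interval from 0.44 to 1.5 and an unadjusted p of 0.000685 from edgeR, which did not survive adjustment (adjusted p = 1). In controls *Hspa1b* was at 9.01, 11.6 and 22.0 CPM at ZT8 and at 15.8, 19.9 and 25.9 CPM at ZT20, so that the groups overlapped. For *Dnajb1* the difference was 0.28 (0.07 to 0.49), for *Pdia4* 0.23 (0.05 to 0.42) and for *Cirbp* -0.32 (-0.64 to -0.01), all at an adjusted p of 1, and these genes were picked for their change in *ChAT-BKO*. For *Xbp1* it was 0.03 (-0.18 to 0.23), for *Uhrf2* 0.00 (-0.31 to 0.31), for *Luc7l* -0.01 (-0.12 to 0.11) and for *Chpf2* 0.01 (-0.16 to 0.17). Intervals of differences so near 0 are imprecise, because their SE was derived from the change and its F statistic. *Sprr1a*, a cornified envelope gene that injured neurons express, had the smallest p of the interaction (difference 3.34, 95% interval from 1.91 to 4.78, adjusted p = 0.864). It was at 0.673, 1.48 and 2.45 CPM and then at 2.75, 3.91 and 8.58 CPM in *ChAT-BKO* (log2 fold change 1.54, SE 0.30, adjusted p = 0.0289), and at 0.569, 2.64 and 9.68 CPM and then at 0.47, 1.00 and 1.65 CPM in controls, where the ZT8 libraries spread widely. Of the other 8 genes that the rule named for the interaction, 6, such as *Il12a* and *Adamts7*, had mean levels under 1 CPM in every group. *Gm13370* had group means from 0 to 1.11 CPM, and *Gm35934* from 2.29 to 3.62 CPM with a difference of -0.81 (SE 0.21, adjusted p = 1).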

How the data were processed

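RNA-seq of HA immunoprecipitates from spinal cord gave 24 libraries (6 per genotype and time point) and 1 pooled input. Per the labels, the authors aligned reads with STAR 2.7.5 to mm10 and estimated counts with RSEM, and the deposited values are these expected counts per gene, not normalized. Non-whole values made up 6.11% and were rounded. Members and lists were chosen with earlier results of these data known.

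Genes whose counts summed to 10 or more over the 24 immunoprecipitates were tested with edgeR 4.0.16 (R 4.3.3) by its quasi-likelihood F test after TMM, with Benjamini-Hochberg adjustment over all 21738 genes and calls at an adjusted p under 0.05. Each genotype was fitted on its own 12 libraries, and the difference of effects on 24. Normalized counts are CPM on TMM-scaled totals over the 24 libraries, with a prior count of 2 on the log2 scale. SEs are the absolute log2 fold change over the square root of the F statistic, and are imprecise where both are near 0. Intervals of the difference are 95% intervals from these SEs. Exact permutation tests compared mean log2 CPM of 6 against 6 libraries (two-sided). A count of 0 allows up to 3 counts, which covers counting error only. Ratios to the input are log2 of mean TMM-scaled *ChAT-BKO* CPM over the unscaled CPM of the 1 input library, each plus 0.1.

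Named were, in each direction, the 12 called genes of smallest adjusted p, the 5 with the smallest p in each direction of the other comparisons, *Arntl*, and list members. Some of these are not reported here. Promoters were the first listed RefSeq window per symbol, found for 52 of the 62 called genes. Alternatives were DESeq2 1.42.0, its size factors in edgeR, no filter, filterByExpr, a replicate block, limma 3.58.1 voom, an adjusted p under 0.01, all 24 libraries in 1 fit, a length-slope covariate (gene lengths of GENCODE for 87.1% of genes), and each library left out. Counts thinned to a common depth, and *Hspa1a* and *Hspa1b* summed, were added after seeing the data. The fits were tested on simulated data with known fold changes.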

Additional observations from a re-analysis of the deposited data

Results flagged for a closer look

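For the genes named in the text, the libraries of each *ChAT-BKO* group were searched for a value far from the other 5, on the log2 CPM scale and by Dixon's ratio. Of 106 groups examined 1 had such a library, where chance gives about 1 in 20. *Rbm5*, a splicing regulator, was at 39.1 CPM in *ChAT-BKO* replicate 5 at ZT8, and the next lowest library was at 47.5 CPM. The gene rose at ZT20 and lost its call with each of the 12 libraries left out, that one included.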

How the results depend on the processing

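The *ChAT-BKO* count of 62 (50 higher, 12 lower) was 225 with DESeq2 (140 and 85, with 60 of the 62 among them), 140 with all 24 libraries in 1 fit (60 shared), 485 with the length slope as a covariate (285 and 200, all 62 shared), 24 at an adjusted p under 0.01, and 36 after thinning every library to 4.04 M counts (30 shared). Without single libraries it ran from 33 to 56, and fell by over 1.5 times without replicate 1 (33), 3 (37) or 5 (36) at ZT8. The other planned settings gave 45 to 78. The control count of 25 was 127 with DESeq2, 360 with the length slope and 8 at an adjusted p under 0.01, and without single libraries it ran from 11 to 28, falling to between 11 and 16 without replicate 1, 4 or 6 at ZT8 or replicate 1, 2, 3, 4 or 6 at ZT20. The difference of effects gave 0 calls under all settings except the length slope, with 1. List calls rose to 7 (unfolded protein response) and 5 (heat shock) with DESeq2, and stayed at 4 and 3 after thinning. The cause was not tested. No named gene reversed. Of 41 named genes called, 18 lost the call after thinning, 9 with the replicate block and 8 with limma voom, and *Hspa1b*, *Xbp1*, *Pdia4*, *Cirbp* and *Dbp* kept it without any single library.

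The labels give the groups the same replicate numbers. Same-numbered *ChAT-BKO* libraries correlated between -0.44 and 0.55 in their deviations from the group means, and control libraries between -0.22 and 0.66. The main fits did not take the numbers as pairs. In all 4 groups the summed cholinergic markers were highest in replicate 4 and the summed oligodendrocyte markers in replicate 2. Whether same-numbered libraries share a batch was not tested. With the replicate block *ChAT-BKO* had 47 calls (40 shared) and controls 86. Only replicate 4 of 6 correlated best with its own number in *ChAT-BKO*, and in controls replicates 2 and 6 did. Depth limits the comparison, since the median total at ZT20 was 7.62 M against 15.1 M at ZT8, and a count of 0 allows up to 0.743 CPM in the shallowest library.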
